A study of Arabidopsis thaliana with 36 samples.

Results

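Rosettes of unirradiated Arabidopsis thaliana harvested 72 h after a mock exposure were compared with rosettes harvested 24 h after it, an interval of 48 h. Each time had 3 libraries, chosen by their labels, so the comparison uses 6 of the 36 libraries of the series. All plants were of the ecotype Col-0, with no mutation or transgene named in the labels, were grown in soil at 22 °C with 8 h of light and 16 h of dark, and entered the experiment at 4 weeks of age. The other libraries come from mock plants at 1 h and 3 h and from plants given 10 cGy or 100 cGy of gamma rays at 1.4 cGy per second and harvested at 1, 3, 24 and 72 h, with 3 libraries in each of the 12 groups. The mock plants received no dose, and how they were otherwise handled is not given in the labels. Whole rosettes were used, and the labels do not say how many plants went into a library or whether the 3 replicates were separate plants. The p-values then measure only the spread between replicate libraries, which may be in part technical. That spread was estimated for each gene over all 36 libraries and not from the 6 alone. The hour of day of each harvest is not in the labels. Differences of plant age, harvest day and hour of harvest therefore cannot be told apart from the difference between 72 h and 24 h.

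Levels are CPM, counts scaled to a library total of 1000000, which do not correct for transcript length, so they are compared between libraries and not between genes. Of 33977 genes in the table, the 18875 with at least 1 CPM in at least 3 of the 36 libraries were tested. A gene is said to have risen or fallen when its limma p-value, adjusted by Benjamini and Hochberg over all tested genes, was under 0.05. The log2 difference is the mean of log2(CPM + 0.5) at 72 h minus that at 24 h, with its standard error (SE), and every group has n = 3. Values after ± are SD.

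Plants in a day of light and dark keep time with a circadian clock, a loop of transcription factors in which the MYB proteins LHY and CCA1 peak around dawn and repress genes that are expressed later in the day. Light itself acts on top of this loop: HY5 and its relatives promote light responses, and the PIF proteins promote growth in the dark. A rosette leaf also builds starch in the light and degrades it in the dark. Daily rhythms are known for transcripts of starch and chlorophyll metabolism, water channels and heat shock proteins. A whole rosette mixes leaves of all ages, and in such bulk samples fewer cells of a type and less RNA per cell cannot be told apart.

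Promoter windows are shown for 5 genes of the clock, heat shock, starch and chlorophyll groups described below, each with a short DNA motif known from such genes. The windows are the 250 bases before the annotated gene start in RefSeq TAIR10.1, 5′ to 3′ on the strand of the gene, with the motif in capitals, and the genes were picked after their values were seen. LHY (chr1:37872-38121, minus strand) and CCA1 (chr2:19245341-19245590, plus strand) each hold 1 G-box (CACGTG), a site bound by bZIP and bHLH factors such as HY5 and the PIFs.
LHY: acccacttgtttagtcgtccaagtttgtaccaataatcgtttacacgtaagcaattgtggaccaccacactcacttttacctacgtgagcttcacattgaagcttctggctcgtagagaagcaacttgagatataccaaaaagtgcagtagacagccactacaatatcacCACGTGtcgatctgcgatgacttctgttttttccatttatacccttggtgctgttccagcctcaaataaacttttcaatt
CCA1: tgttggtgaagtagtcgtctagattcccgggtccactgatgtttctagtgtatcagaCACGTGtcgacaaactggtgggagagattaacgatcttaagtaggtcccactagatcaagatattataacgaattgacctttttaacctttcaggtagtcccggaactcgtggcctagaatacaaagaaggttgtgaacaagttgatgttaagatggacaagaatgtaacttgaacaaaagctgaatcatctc
The window of HSFA7A (chr3:19264891-19265140, plus strand), a heat stress transcription factor gene, holds 2 matches to the heat shock element, here TTC, GAA and TTC with 2 free bases between neighbours.
HSFA7A: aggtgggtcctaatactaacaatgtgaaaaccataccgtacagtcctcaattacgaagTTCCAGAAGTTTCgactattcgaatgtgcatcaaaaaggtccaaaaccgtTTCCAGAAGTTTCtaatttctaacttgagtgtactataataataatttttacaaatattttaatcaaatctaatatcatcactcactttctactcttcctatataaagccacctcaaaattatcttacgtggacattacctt
ISA3 (chr4:5783659-5783908, plus strand), which encodes an isoamylase of starch breakdown, and PORA (chr5:21992815-21993064, minus strand), which encodes a protochlorophyllide oxidoreductase, each hold 1 evening element (AAAATATCT), the site through which LHY and CCA1 repress their targets. In ISA3 it lies on the other strand.
ISA3: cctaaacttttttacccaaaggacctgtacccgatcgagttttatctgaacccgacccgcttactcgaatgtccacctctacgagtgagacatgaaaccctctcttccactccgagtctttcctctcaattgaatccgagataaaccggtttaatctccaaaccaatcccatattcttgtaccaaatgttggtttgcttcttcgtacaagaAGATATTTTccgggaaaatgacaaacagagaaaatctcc
PORA: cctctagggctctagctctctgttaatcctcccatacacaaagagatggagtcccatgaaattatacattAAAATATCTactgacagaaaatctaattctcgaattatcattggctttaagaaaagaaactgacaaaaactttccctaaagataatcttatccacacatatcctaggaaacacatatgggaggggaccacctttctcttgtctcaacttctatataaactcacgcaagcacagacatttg

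Each motif was searched on both strands of the 250-base windows of 18362 tested protein-coding genes. The evening element was in 9.52% of the 336 windows of genes that rose 2-fold or more and in 2.14% of the 514 windows of genes that fell 2-fold or more, against 2.55% of the windows of all tested genes. The G-box was in 8.04% of the windows of those rises and 14.6% of those of the falls, against 7.56% of all. The heat shock element was in 0 windows of the rises and 1.56% of those of the falls, against 0.403% of all. The CCA1 binding site (AAAAATCT) was in 7.14% of the windows of the rises and 6.81% of those of the falls, against 6.88% of all, and neither this motif nor the evening element contains the other. The telo box (AAACCCTAA), known from ribosomal protein genes, was in 0.595% of the windows of the rises and 0.973% of those of the falls, against 2.07% of all. By these shares the evening element was more frequent before rising genes, and the G-box and heat shock element before falling genes. For the heat shock element this rests on 8 of 514 windows. The CCA1 binding site was about as frequent in each set, and the telo box was less frequent in both sets than in all. In the lists, a G-box was in 7 of 13 windows of morning clock genes, 2 of 13 of evening clock genes, 3 of 12 of heat shock genes, 5 of 21 of flavonoid genes and 4 of 18 of light-harvesting genes, a list with 17 rises and 0 falls. An evening element was in 6 of 13 windows of evening clock genes and 1 of 13 of morning clock genes, and a heat shock element in 2 of 12 of heat shock genes and 1 of 13 of morning clock genes. These shares describe letters in a window and were given no test.

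Library depth in units of 1000000 counts, recovered from the step between CPM values, was 30.9 to 35.5 at 72 h and 28.2 to 32.8 at 24 h. A floor of 3 counts stood for 0.0846 to 0.0970 CPM at 72 h and 0.0914 to 0.107 CPM at 24 h, counting error only. Pearson correlations of log2(CPM + 0.5) were 0.986 to 0.992 between replicates of a time and 0.962 to 0.971 between a 72 h and a 24 h library. The label "whole rosette" was checked against markers fixed for other organs and cell types. The 5 mesophyll markers summed to 39410 to 42820 CPM at 72 h and 36860 to 41120 CPM at 24 h. Root markers summed to 45.29 to 85.65 CPM at 72 h and 82.64 to 123.5 CPM at 24 h, nearly all of it from the beta-glucosidase gene BGLU23, and 5 of the 7 were below the filter. None of the 8 flower and seed markers passed the filter, with sums of 0.356 to 0.592 CPM at 72 h and 0.164 to 0.488 CPM at 24 h. The 9 guard cell and stomatal markers summed to 73.32 to 92.07 CPM at 72 h and 99.69 to 101.2 CPM at 24 h without overlap, with 1 rise (SLAC1, 0.63) and 2 falls (KAT1, -0.45, and FAMA, -0.35). The 3 phloem markers summed to 159.3 to 194.6 CPM at 72 h and 128.2 to 155.2 CPM at 24 h, likewise without overlap. Of these markers 1 rose (SUC2) and 0 fell, with a median log2 difference of 0.05. Sums of trichome, epidermis and shoot meristem markers overlapped between the times. The part of these cell types in the results was not tested.

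Between the 72 h and the 24 h rosettes 8056 genes changed, 42.7% of those tested. Of these, 4155 rose (22.0%) and 3901 fell (20.7%). The differences were mostly small: the median size over all tested genes was 0.223 on the log2 scale, 344 genes rose 2-fold or more (1.82%) and 530 fell 2-fold or more (2.81%). The 3 libraries of 72 h lay entirely above or entirely below the 3 of 24 h for 47.4% of all tested genes. Called genes made up 14.2% of those under 1 CPM on average and 73.2% of those of 1000 CPM or more, so a list of strongly expressed genes has more calls than one of weak genes. Of the 8056 calls, 5505 (68.3%) held whichever of the 6 libraries was left out. Counts of list members below are to be read against 22.0% for rises and 20.7% for falls, and for strongly expressed genes against higher shares. At 1000 CPM or more, 56 of 112 genes rose and 26 fell. The lists were chosen with earlier results of these data known.

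The clock transcription factor gene LHY had 34.4, 34.6 and 31.1 CPM at 72 h, against 519, 495 and 528 CPM at 24 h. Every library of 72 h was more than 10-fold below every library of 24 h, with little spread on either side (log2 difference -3.93, SE 0.11, adjusted p = 2.07e-20). Its partner CCA1 had 184, 177 and 188 CPM at 72 h, against 604, 559.5 and 596 CPM at 24 h, again without overlap (log2 difference -1.68, SE 0.06, adjusted p = 7.71e-19). RVE8, a related MYB gene whose product activates evening genes, had 42.8, 43.9 and 40.7 CPM at 72 h, against 156, 165 and 185 CPM at 24 h (log2 difference -1.98, SE 0.08, adjusted p = 3.23e-17). LNK2, which encodes a partner of RVE8, had 417, 468 and 372 CPM at 72 h, against 1112, 1087 and 1282 CPM at 24 h (log2 difference -1.47, SE 0.09, adjusted p = 3.77e-14). These 4 genes of the morning phase were all lower in every 72 h library.

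Of 12 tested morning clock genes, 10 fell and 1 rose, with a median log2 difference of -0.77 against 0.0048 over all tested genes. PRR9, a repressor of LHY and CCA1 that follows them in the morning, averaged 97.5 ± 4.21 CPM at 72 h and 160.3 ± 4.75 CPM at 24 h (log2 difference -0.71, SE 0.06, adjusted p = 1.31e-10). PRR7, the next repressor in that sequence, was the one that rose: it had 168, 178 and 179 CPM at 72 h, against 122, 125 and 129 CPM at 24 h (log2 difference 0.48, SE 0.06, adjusted p = 1.65e-07). The other falls were RVE1, RVE4, LNK1, LNK3 and LNK4, between -1.01 and -0.48 on the log2 scale, and RVE7 did not pass the test. ASG4, a gene of the same homeodomain-like MYB family, was among the 15 largest falls with 11.1, 8.96 and 9.02 CPM at 72 h, against 75.8, 63.2 and 70.9 CPM at 24 h (log2 difference -2.79, SE 0.17, adjusted p = 1.12e-13).

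The 11 tested evening clock genes were split, with 3 rises and 4 falls. GI, which links the clock to flowering, had 40.0, 34.2 and 38.4 CPM at 72 h, against 96.8, 84.7 and 68.1 CPM at 24 h, without overlap (log2 difference -1.13, SE 0.09, adjusted p = 1.58e-11). ZTL, the photoreceptor F-box gene that GI stabilizes, fell by less (log2 difference -0.36, SE 0.06, adjusted p = 9.71e-06). ELF3, a part of the evening complex, had 6.46, 7.57 and 6.74 CPM at 72 h, against 2.83, 4.53 and 3.91 CPM at 24 h and rose (log2 difference 0.82, SE 0.13, adjusted p = 7.58e-06), while LUX, another part of that complex, fell (log2 difference -0.51, SE 0.18, adjusted p = 0.021). The fall of LUX was lost without replicate 3 of 24 h, replicate 1 of 72 h or replicate 3 of 72 h (adjusted p = 0.0647 to 0.115). TOC1, an evening repressor of the morning genes, had 8.79, 9.54 and 9.14 CPM at 72 h, against 6.80, 8.16 and 6.43 CPM at 24 h (log2 difference 0.35, SE 0.11, adjusted p = 0.00962), and its rise was lost without replicate 3 of 24 h (adjusted p = 0.0628). CHE, a repressor of CCA1, also rose (log2 difference 0.55, SE 0.08, adjusted p = 3.96e-06), and LKP2, a relative of ZTL, fell (log2 difference -0.35, adjusted p = 0.000331). Of 3 CDF genes, which encode Dof repressors of flowering, CDF1 fell (log2 difference -0.22, adjusted p = 0.0167), a call lost without replicate 1 of 24 h, replicate 1 of 72 h or replicate 2 of 72 h (adjusted p = 0.0565 to 0.0944). PRR5 had 0.808, 0.808 and 0.987 CPM at 72 h, against 0.305, 0.295 and 0.462 CPM at 24 h and did not pass the test (log2 difference 0.68, SE 0.32, adjusted p = 0.0903). Its adjusted p was 0.0262 with only the 6 libraries in the fit, 0.00796 with the 12 mock libraries and 0.0459 with a pseudocount of 0.1. ELF4 was near the floor, at 0.162, 0.0970 and 0.113 CPM at 72 h and 0.0914, 0 and 0.107 CPM at 24 h.

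**Figure D1:**
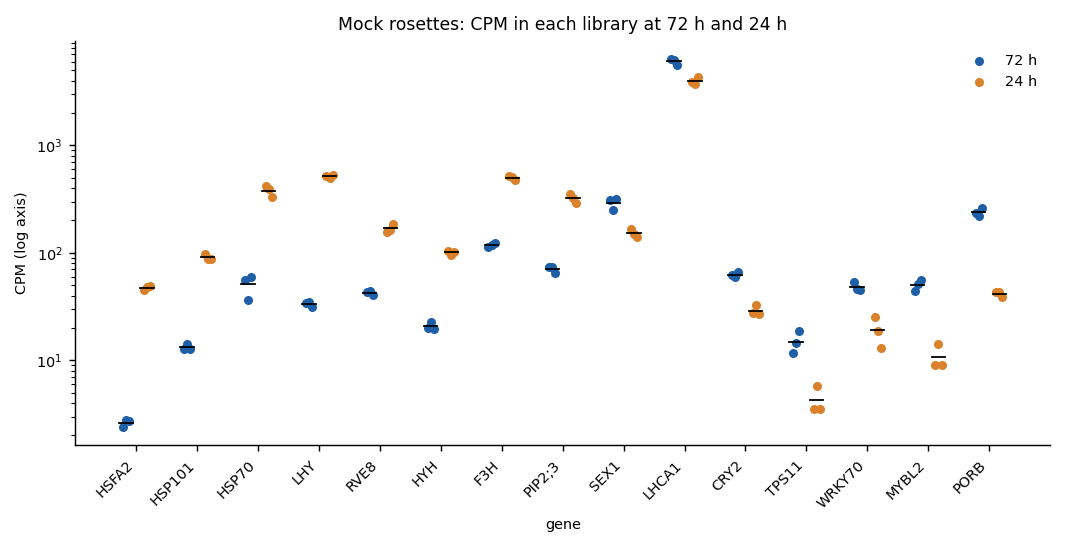
CPM of 15 genes in each of the 6 mock libraries on a log axis, with 72 h to the left of 24 h for each gene, points for libraries and bars for means. LHY, HSFA2 and F3H are lower in all 3 libraries of 72 h than in those of 24 h, and PORB is higher in all 3.

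The mock plants of 1 h and 3 h give a scale for these levels. The mean of LHY was 125 CPM at 1 h, 9.67 CPM at 3 h, 514.1 CPM at 24 h and 33.4 CPM at 72 h. CCA1 followed the same order of levels, with 282 CPM at 1 h, 82.5 CPM at 3 h, 586.2 CPM at 24 h and 182.8 CPM at 72 h. For both genes the 72 h mean lay between those of 1 h and 3 h, and the 24 h mean was above all others. PRR7 stood at 169 CPM at 1 h, 241 CPM at 3 h, 125.1 CPM at 24 h and 175.0 CPM at 72 h, so that its 24 h mean was the lowest of the 4. HY5 was 41.5 CPM at 1 h, 10.8 CPM at 3 h, 45.4 CPM at 24 h and 12.2 CPM at 72 h. The values of the 4 harvests are set side by side without a test.

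**Figure D2:**
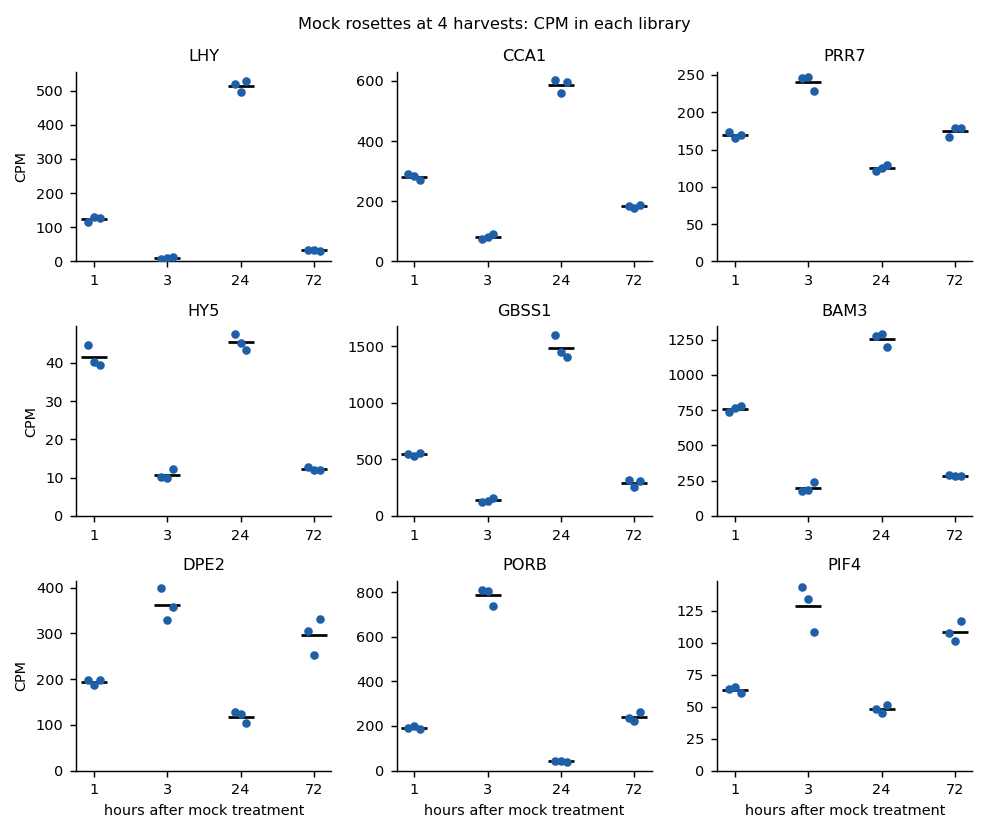
CPM of 9 genes in the mock libraries at 1, 3, 24 and 72 h on an axis from 0, with points for libraries and bars for means. For LHY, CCA1 and GBSS1 the means of 24 h are the highest and those of 3 h the lowest, while for PORB the order is the reverse.

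In light signalling, 7 of 22 tested genes rose and 6 fell. HY5, a bZIP factor that promotes light responses, had 12.7, 12.1 and 11.9 CPM at 72 h, against 47.6, 45.1 and 43.4 CPM at 24 h (log2 difference -1.85, SE 0.11, adjusted p = 4.6e-14). Its homologue HYH had 20.17, 22.5 and 19.5 CPM at 72 h, against 103, 96.2 and 103 CPM at 24 h (log2 difference -2.25, SE 0.11, adjusted p = 1.04e-15). Each 72 h library was more than 3-fold below each 24 h library in both genes. COP1, the ubiquitin ligase that removes HY5 in the dark, fell as well, by less (log2 difference -0.58, SE 0.05, adjusted p = 7.03e-10). PIF4, which promotes growth in the dark and in warmth, had 108, 102 and 117 CPM at 72 h, against 48.5, 45.4 and 51.2 CPM at 24 h and rose (log2 difference 1.16, SE 0.11, adjusted p = 4e-10), as did PIF1 (0.80). PIF7 fell (log2 difference -0.217), a call that did not hold whichever library was left out. PIF3 (log2 difference -0.255) and PIF5 (log2 difference 0.01, adjusted p = 0.9) did not pass the test. Among photoreceptor genes, CRY2 had 62.0, 59.3 and 66.1 CPM at 72 h, against 27.4, 32.6 and 26.9 CPM at 24 h (log2 difference 1.0999, SE 0.07, adjusted p = 9.94e-13) and CRY1 rose by 0.72, whereas PHYB fell by 0.85 on the log2 scale (adjusted p = 9.55e-12). The cryptochrome genes for blue light and the phytochrome B gene for red light thus moved in opposite directions. BBX27, a B-box gene among the 15 largest rises, had 23.57, 28.2 and 28.7 CPM at 72 h, against 2.44, 3.90 and 3.41 CPM at 24 h (log2 difference 2.88, SE 0.17, adjusted p = 4.6e-14).

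Light-harvesting genes, whose products bind chlorophyll in the antennae, rose together by a small amount: 17 of 18 rose and 0 fell, with a median log2 difference of 0.39. LHB1B1 had 2355, 2297 and 2260 CPM at 72 h, against 902, 809.7 and 1137 CPM at 24 h and the largest rise of the list (log2 difference 1.29, SE 0.10, adjusted p = 1.52e-11). LHCA1, of the photosystem I antenna, had 6335, 6160 and 5596 CPM at 72 h, against 3915, 3688 and 4363 CPM at 24 h (log2 difference 0.60, SE 0.06, adjusted p = 7.05e-09). CAB1 overlapped between the times and did not pass the test (log2 difference -0.05, adjusted p = 0.616). Near-identical CAB and LHCB copies can share reads, so levels of single members are uncertain. With only the 6 libraries in the fit, 11 of the 18 rose. Of 20 genes for the photosystems and the Calvin cycle, 10 rose and 2 fell, and 4 rose and 0 fell with only the 6 libraries in the fit. The falls were also 0 without replicate 1 of 24 h or replicate 2 of 72 h. PSAD-1 of photosystem I averaged 2649 ± 105 CPM at 72 h and 1825 ± 147 CPM at 24 h (log2 difference 0.54, SE 0.05, adjusted p = 1.08e-09). The falls were the Calvin cycle enzyme genes GAPA (log2 difference -0.14, adjusted p = 0.0323) and SBPASE (log2 difference -0.16, adjusted p = 0.0138), and neither fall held with libraries rescaled by median ratios (adjusted p = 0.103 and 0.0643).

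In chlorophyll synthesis 6 of 13 genes rose and 4 fell. PORB, one of the enzymes that reduce protochlorophyllide in the light, had 235, 221 and 263 CPM at 72 h, against 43.0, 43.0 and 39.1 CPM at 24 h (log2 difference 2.51, SE 0.08, adjusted p = 2.79e-19). The lowest library of 72 h was about 5 times the highest of 24 h. PORC, which does the same step, had 318, 289 and 320 CPM at 72 h, against 180.5, 158 and 166 CPM at 24 h (log2 difference 0.88, SE 0.07, adjusted p = 7.1e-11). PORA was low in all libraries, with 1.62, 0.776 and 1.1 CPM at 72 h, against 0.457, 0.230 and 0.106 CPM at 24 h (log2 difference 1.12, SE 0.28, adjusted p = 0.00182). GLK1, a transcription factor gene that promotes chloroplast genes, fell instead (log2 difference -0.72, SE 0.06, adjusted p = 1.19e-11). The 4 tested light stress genes past the threshold all fell, of 6 tested. They were the early light-induced protein genes ELIP1 (log2 difference -1.55, adjusted p = 2.39e-09) and ELIP2 (log2 difference -1.64, adjusted p = 5.38e-06) and the related SEP2 (log2 difference -0.67, adjusted p = 4.23e-07) and LHCB7 (log2 difference -1.09, adjusted p = 5.12e-10).

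Transcripts for starch metabolism differed by enzyme. GBSS1, the starch synthase that makes amylose, had 321, 260 and 306 CPM at 72 h, against 1601, 1453 and 1407 CPM at 24 h (log2 difference -2.33, SE 0.09, adjusted p = 1.27e-17). The chloroplast beta-amylase gene BAM3 had 294, 281 and 280 CPM at 72 h, against 1273, 1288 and 1200 CPM at 24 h (log2 difference -2.13, SE 0.08, adjusted p = 9.79e-19). In both genes each library of 72 h was more than 4-fold below each of 24 h. Genes for other steps of starch breakdown rose: DPE2, which processes maltose in the cytosol, had 304, 253 and 330.5 CPM at 72 h, against 128, 123 and 103 CPM at 24 h (log2 difference 1.32, SE 0.08, adjusted p = 1.9e-13). The alpha-amylase gene AMY3 averaged 254 ± 29.7 CPM at 72 h and 108 ± 5.09 CPM at 24 h (log2 difference 1.23, SE 0.07, adjusted p = 7.7e-14). SEX1, the glucan water dikinase that starts breakdown, averaged 293 ± 35.8 CPM at 72 h and 152 ± 14.1 CPM at 24 h (log2 difference 0.94, SE 0.07, adjusted p = 1.1e-11). ISA3, whose promoter window is shown above, had 27.9, 26.7 and 28.9 CPM at 72 h, against 8.35, 10.5 and 8.31 CPM at 24 h (log2 difference 1.58, SE 0.13, adjusted p = 2.64e-11). BAM1 and the sugar exporter gene SWEET11 fell (-1.11 and -0.49), and SUC2, the sucrose carrier of phloem companion cells, rose (0.42).

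Among genes known to respond to low sugar, 9 of 16 rose and 2 fell. TPS8, which encodes a class II trehalose phosphate synthase-like protein, had 43.2, 47.9 and 53.5 CPM at 72 h, against 6.34, 9.35 and 8.81 CPM at 24 h (log2 difference 2.504, SE 0.19, adjusted p = 6.68e-12). BZIP63, a bZIP factor acting with the energy sensor SnRK1, had 14.1, 20.28 and 16.7 CPM at 72 h, against 3.29, 3.94 and 4.12 CPM at 24 h (log2 difference 2.02, SE 0.13, adjusted p = 5.84e-13). TPS11 averaged 14.9 ± 3.43 CPM at 72 h and 4.29 ± 1.31 CPM at 24 h (log2 difference 1.70, SE 0.21, adjusted p = 1.03e-07), and AKINBETA1, an SnRK1 subunit, rose by 0.86. In all of these the 72 h libraries lay above those of 24 h. The starvation marker DIN10 and the asparagine synthetase gene ASN1 did not pass the test (log2 difference -0.60, adjusted p = 0.204 and log2 difference 0.57, adjusted p = 0.298), and SEN1 fell (log2 difference -1.23, SE 0.41, adjusted p = 0.0152). The fall of SEN1 was lost without replicate 2 of 24 h, replicate 1 of 72 h or replicate 2 of 72 h (adjusted p = 0.100 to 0.126). AT1G70820, annotated as a phosphoglucomutase gene, was the largest rise of all with 117, 116 and 138 CPM at 72 h, against 9.69, 11.7 and 12.0 CPM at 24 h (log2 difference 3.42, SE 0.11, adjusted p = 2.79e-19).

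Of 10 tested heat shock genes 8 fell and 0 rose at 72 h, with a median log2 difference of -1.87. HSFA2, a heat stress transcription factor, had 2.39, 2.78 and 2.71 CPM at 72 h, against 45.6, 48.4 and 48.7 CPM at 24 h (log2 difference -3.94, SE 0.32, adjusted p = 3.19e-11). The chaperone gene HSP70 had 55.8, 36.6 and 59.8 CPM at 72 h, against 419.5, 389 and 328 CPM at 24 h (log2 difference -2.91, SE 0.21, adjusted p = 3.98e-12). HSP101, a disaggregase needed for heat tolerance, had 12.6, 14.3 and 12.7 CPM at 72 h, against 96.8, 87.8 and 87.3 CPM at 24 h (log2 difference -2.73, SE 0.14, adjusted p = 1.77e-15). In these genes each library of 24 h stood more than 5 times above each of 72 h. HSFA7A, whose window is shown above, had 0.485, 0.550 and 0.677 CPM at 72 h, against 2.41, 2.03 and 2.98 CPM at 24 h (log2 difference -1.47, SE 0.20, adjusted p = 1.01e-06). On the log2 scale HSP90.1 fell by 2.48, MBF1C fell by 2.06 and FES1A fell by 1.68. The abundant constitutive HSC70-1 had 1894, 1837 and 1955 CPM at 72 h, against 3933, 3774 and 3370 CPM at 24 h (log2 difference -0.96, SE 0.07, adjusted p = 1.01e-11). The small heat shock protein gene HSP18.2 was at 2.1 to 2.8 CPM in all 6 libraries and did not pass the test (log2 difference 0.17, adjusted p = 0.564), nor did BAG6 (log2 difference 0.17, adjusted p = 0.402). At 1 h and 3 h HSFA2 averaged 5.10 and 4.38 CPM in mock plants, nearer to 72 h than to 24 h.

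Chaperones of the endoplasmic reticulum went the other way, with 8 of 9 tested genes up and 1 down. PDIL1-1, a protein disulfide isomerase gene, had 86.2, 92.6 and 103 CPM at 72 h, against 43.6, 59.5 and 43.6 CPM at 24 h (log2 difference 0.95, SE 0.10, adjusted p = 9.4e-09). The HSP90 of the endoplasmic reticulum, SHD, averaged 384 ± 20.0 CPM at 72 h and 241 ± 34.9 CPM at 24 h (log2 difference 0.68, SE 0.11, adjusted p = 6.16e-06). BZIP60, a transcription factor gene of the unfolded protein response, was the one that fell (log2 difference -0.49, SE 0.12, adjusted p = 0.00127). Fes1B, a homologue of a chaperone exchange factor, was among the 15 largest rises, with 16.3, 15.8 and 20.6 CPM at 72 h, against 1.43, 1.31 and 2.34 CPM at 24 h (log2 difference 3.06, SE 0.16, adjusted p = 6.76e-15), while its relative FES1A fell.

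In the flavonoid pathway 14 of 21 tested genes fell and 4 rose. The falls took in the entry steps and the flavonol branch. PAL1, which encodes the entry enzyme, had 233, 229 and 273 CPM at 72 h, against 851, 817 and 671 CPM at 24 h (log2 difference -1.67, SE 0.11, adjusted p = 7.93e-13). The 4-coumarate ligase gene 4CL3 had 41.2, 50.9 and 49.4 CPM at 72 h, against 203, 198 and 193 CPM at 24 h (log2 difference -2.06, SE 0.10, adjusted p = 2.06e-15). F3H, which makes dihydroflavonols, averaged 119 ± 5.65 CPM at 72 h and 499 ± 21.6 CPM at 24 h (log2 difference -2.06, SE 0.14, adjusted p = 5.76e-13), and the flavonol synthase gene FLS1 averaged 75.4 ± 0.538 CPM at 72 h and 226 ± 17.7 CPM at 24 h (log2 difference -1.58, SE 0.09, adjusted p = 3.63e-14). MYB111, MYB12 and MYB11, regulators of flavonol genes, had log2 differences of -1.82, -1.09 and -0.73 and fell. The chalcone synthase gene TT4 did not pass the test (log2 difference -0.19, adjusted p = 0.131).

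The 4 rises were DFR, LDOX, TT7 and MYBL2. DFR, which makes leucoanthocyanidins, had 76.5, 136 and 161 CPM at 72 h, against 27.2, 67.5 and 40.2 CPM at 24 h (log2 difference 1.49, SE 0.44, adjusted p = 0.00661, and adjusted p = 0.0511 without replicate 1 of 24 h). LDOX, the next enzyme toward anthocyanins, had 73.1, 112 and 146 CPM at 72 h, against 26.2, 53.2 and 39.2 CPM at 24 h (log2 difference 1.47, SE 0.39, adjusted p = 0.00296). In both genes replicate 1 was the lowest library at either time. MYBL2, a repressor of anthocyanin genes, had 43.7, 50.9 and 55.9 CPM at 72 h, against 9.02, 14.1 and 9.13 CPM at 24 h (log2 difference 2.195, SE 0.15, adjusted p = 7.38e-13), whereas PAP1, an activator of them, fell (log2 difference -1.29, SE 0.32, adjusted p = 0.00195). TT7, which adds a hydroxyl group to the flavonoid ring, rose as well (log2 difference 1.37, SE 0.37, adjusted p = 0.00323).

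Aquaporin genes fell almost throughout: 14 of 16 fell and 0 rose, with a median log2 difference of -0.68. The plasma membrane channel gene PIP2;3 had 73.1, 73.5 and 65.4 CPM at 72 h, against 354, 322 and 289 CPM at 24 h (log2 difference -2.17, SE 0.16, adjusted p = 3.18e-12). PIP1;2 had 999, 943 and 958 CPM at 72 h, against 1849, 1776 and 1673 CPM at 24 h (log2 difference -0.87, SE 0.06, adjusted p = 9.22e-13). TIP2;1, a channel of the vacuole membrane, had 549.6, 540.1 and 510.1 CPM at 72 h, against 1094, 982 and 1061 CPM at 24 h (log2 difference -0.97, SE 0.09, adjusted p = 7.23e-10). The groups did not overlap in any of these genes. PIP2;5 and PIP2;8, both weakly expressed, did not pass the test. PIP2;2 and PIP2;3 are near-identical copies that can share reads. The list summed to 5977 to 6327 CPM at 72 h and 9745 to 9958 CPM at 24 h.

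Of 25 genes of abscisate and dehydration 12 fell and 0 rose, and 13 did not pass the test. ABF3, a transcription factor of abscisate response, had 59.6, 54.6 and 53.1 CPM at 72 h, against 132, 130.3 and 144 CPM at 24 h (log2 difference -1.27, SE 0.11, adjusted p = 9.48e-11). The phosphatase gene HAB1, a brake on abscisate signalling, had 51.6, 47.6 and 49.3 CPM at 72 h, against 134, 155 and 139.5 CPM at 24 h (log2 difference -1.52, SE 0.18, adjusted p = 7.2e-08). HB-12 averaged 26.4 ± 3.34 CPM at 72 h and 66.9 ± 7.71 CPM at 24 h (log2 difference -1.32, SE 0.21, adjusted p = 6.04e-06). HAI1, another phosphatase gene of this pathway, had 1.52, 1.84 and 3.86 CPM at 72 h, against 8.197, 32.2 and 16.5 CPM at 24 h (log2 difference -2.62, SE 0.84, adjusted p = 0.0122), and its fall did not hold without replicate 2 of 24 h (adjusted p = 0.0685). Replicate 1 of 24 h was lowest of its group for HAI1 and for the dehydration gene RD20. Among the members that did not pass, RAB18, a classic marker of dehydration, had 13.3, 11.8 and 11.3 CPM at 72 h, against 11.3, 9.67 and 9.02 CPM at 24 h (log2 difference 0.27, adjusted p = 0.651) and P5CS1 overlapped (log2 difference -0.12, adjusted p = 0.647). Of 14 touch and early stress genes 7 fell and 0 rose, among them the calmodulin-like genes TCH3 (log2 difference -1.30, adjusted p = 6.73e-06) and TCH2 (log2 difference -0.76, adjusted p = 1.32e-07). WRKY40 had 0.291, 0.647 and 0.254 CPM at 72 h, against 4.54, 4.53 and 5.11 CPM at 24 h (log2 difference -2.57, SE 0.71, adjusted p = 0.00436). Of 13 cold response genes 6 fell and 3 rose, with the dehydrin gene ERD10 down (log2 difference -1.32, adjusted p = 2.4e-08) and CBF3, a cold regulator, up (log2 difference 1.26, adjusted p = 2.59e-05).

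Jasmonate genes had 5 falls and 2 rises among 27. AOC2, an allene oxide cyclase gene of jasmonate synthesis, had 99.4, 112 and 135 CPM at 72 h, against 19.8, 35.7 and 41.3 CPM at 24 h and rose (log2 difference 1.88, SE 0.45, adjusted p = 0.0011). JAZ1, a repressor of jasmonate responses, had 4.82, 9.05 and 9.31 CPM at 72 h, against 18.8, 32.0 and 30.3 CPM at 24 h (log2 difference -1.76, SE 0.63, adjusted p = 0.0253), and its call was lost without replicate 2 of 24 h, replicate 3 of 24 h or replicate 1 of 72 h (adjusted p = 0.0706 to 0.105). The storage protein gene VSP2 had 97.8, 131 and 158 CPM at 72 h, against 27.3, 162 and 104 CPM at 24 h and did not pass the test (log2 difference 0.71, adjusted p = 0.432). Replicate 1 of 24 h was well below the other 2 libraries of its group. With only the 6 libraries in the fit 9 jasmonate genes fell, with the 12 mock libraries 10, and with no filter on low values or with robust moderation 3. Without replicate 3 of 24 h 0 fell, without replicate 2 of 24 h or replicate 1 of 72 h 1 fell, without replicate 3 of 72 h 3 fell, and 1 rose without replicate 1 of 24 h or replicate 3 of 72 h. A single call of the list held whichever of the 6 libraries was left out.

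Salicylate and immunity genes had 5 rises and 3 falls among 19, with 1 fall without replicate 1 of 24 h, replicate 2 of 24 h or replicate 2 of 72 h. PR1, the classic marker of salicylate, ranged from 0.0647 to 23.5 CPM at 72 h and from 0.462 to 5.48 CPM at 24 h, so no difference was seen beyond that spread (log2 difference 1.27, SE 1.13, adjusted p = 0.387), although without replicate 1 of 72 h the adjusted p was 0.0412. PCC1, a small membrane protein gene under clock and pathogen control, had 525, 276 and 249 CPM at 72 h, against 55.1, 43.7 and 24.7 CPM at 24 h (log2 difference 3.06, SE 0.36, adjusted p = 4.7e-08). LURP1, a gene induced by an oomycete pathogen, had 148, 80.7 and 89.3 CPM at 72 h, against 21.9, 10.5 and 7.81 CPM at 24 h (log2 difference 3.01, SE 0.42, adjusted p = 1e-06). The transcription factor gene WRKY54 had 19.9, 17.9 and 16.9 CPM at 72 h, against 3.32, 2.82 and 1.35 CPM at 24 h (log2 difference 2.71, SE 0.32, adjusted p = 4.53e-08), and its homologue WRKY70 averaged 48.1 ± 5.00 CPM at 72 h and 19.1 ± 6.05 CPM at 24 h (log2 difference 1.36, SE 0.25, adjusted p = 4.76e-05). These genes rose without overlap between the times. For PCC1 and LURP1 this was fixed by the rule for the largest rises, which required it. WRKY54 met that rule and was also named from its list, as was WRKY70. Over all tested genes, the 72 h libraries lay entirely above those of 24 h in 23.8%. Of 12 defence WRKY genes 3 rose and 3 fell, with a median log2 difference of -0.24, and 1 fell without replicate 1 or 2 of 24 h. WRKY40, given above, and WRKY46 were among the falls. The fall of WRKY46 (-0.59) was lost without replicate 1 or 2 of 24 h or replicate 2 of 72 h (adjusted p = 0.0742 to 0.204). Among the 3 falls of the salicylate list was CBP60G, lost without replicate 1 of 24 h (adjusted p = 0.0729). The receptor gene NPR1 averaged 32.5 ± 1.32 CPM at 72 h and 27.1 ± 1.47 CPM at 24 h (log2 difference 0.26, SE 0.08, adjusted p = 0.00703). Of 19 ethylene genes 2 rose and 1 fell: ERF5 (log2 difference 0.78, adjusted p = 0.00353), ERF6 (log2 difference 0.64, adjusted p = 0.017) and EBF1 (log2 difference -0.43, adjusted p = 0.000117). The rise of ERF6 was lost without replicate 2 of 24 h (adjusted p = 0.0675) or replicate 2 of 72 h (adjusted p = 0.101).

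Growth hormones gave mixed lists. Type-A response regulator genes, which are induced by cytokinin, fell in 5 of 8 cases and rose in 0, but without replicate 1 of 72 h 3 fell and 1 rose. ARR15 had 7.18, 10.8 and 9.11 CPM at 72 h, against 20.08, 16.9 and 21.3 CPM at 24 h (log2 difference -1.08, SE 0.16, adjusted p = 2.32e-06), and ARR7 averaged 24.0 ± 4.18 CPM at 72 h and 42.3 ± 1.95 CPM at 24 h (log2 difference -0.82, SE 0.15, adjusted p = 3.64e-05). Of 19 auxin response genes 5 rose and 5 fell, with IAA3 down (log2 difference -1.07, adjusted p = 4.42e-09) and the auxin exporter gene PIN7 up (log2 difference 0.80, adjusted p = 4.25e-07). Of 16 brassinosteroid and gibberellin genes 3 rose and 7 fell. BAS1, which inactivates brassinosteroids, had 5.92, 5.76 and 6.12 CPM at 72 h, against 1.28, 1.48 and 2.24 CPM at 24 h (log2 difference 1.596, SE 0.18, adjusted p = 2.77e-08), and BZR1, a factor that acts downstream of them, averaged 17.4 ± 0.908 CPM at 72 h and 25.2 ± 0.509 CPM at 24 h (log2 difference -0.52, SE 0.07, adjusted p = 1.42e-07). Of 15 expansin genes 4 rose and 4 fell, with 2 rises without replicate 1 of 24 h or replicate 2 of 72 h. Of 16 xyloglucan enzyme genes 1 rose and 5 fell. EXPA8 rose (log2 difference 1.52, adjusted p = 5.68e-05) and XTH4 fell (log2 difference -0.82, adjusted p = 2.92e-05), both in cell wall loosening or remodelling. Of 16 leaf growth regulators 3 rose and 2 fell, with 1 fall without replicate 2 or 3 of 24 h or replicate 1 or 3 of 72 h. BB, a ubiquitin ligase gene that limits organ size, had 11.7, 11.8 and 10.2 CPM at 72 h, against 30.5, 29.2 and 30.2 CPM at 24 h (log2 difference -1.38, SE 0.10, adjusted p = 6.33e-12).

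Of 16 S phase genes 8 rose and 0 fell, with a median of 0.24, and 4 rose with only the 6 libraries in the fit. Without replicate 2 of 72 h 3 rose and 1 fell, without replicate 3 of 24 h 5 rose, and 3 calls held whichever of the 6 libraries was left out. The members that did not pass were MCM2 to MCM5 of the replicative helicase, PCNA2, CDT1A, E2FA and CYCD3;1. CDC6, which loads the replicative helicase, had 4.66, 6.01 and 5.13 CPM at 72 h, against 2.499, 2.23 and 3.66 CPM at 24 h (log2 difference 0.82, SE 0.17, adjusted p = 0.000269). None of 20 mitosis genes was called by limma, in the fit of all libraries or of the 6, and 2 had an unadjusted p under 0.05. With only the 12 mock libraries in the fit 2 mitosis genes rose, and without replicate 2 of 24 h 1 rose. The mitotic cyclin gene CYCB1;1 had 2.26, 3.46 and 2.65 CPM at 72 h, against 2.99, 3.67 and 2.95 CPM at 24 h (log2 difference -0.18, adjusted p = 0.389). Of 8 ribosome biogenesis genes 5 rose, with the nucleolin gene NUC-L1 at 331, 368 and 372 CPM at 72 h, against 221, 224 and 208 CPM at 24 h (log2 difference 0.71, SE 0.08, adjusted p = 9.23e-09). Of 14 cytosolic ribosomal protein genes 5 rose and 0 fell, none by 0.50 or more on the log2 scale, and without replicate 2 of 72 h 3 rose and 1 fell, while without replicate 3 of 72 h 9 rose.

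Of 13 phosphate shortage genes 9 fell and 0 rose: PHO2, which limits phosphate uptake, averaged 160 ± 6.83 CPM at 72 h and 225 ± 18.25 CPM at 24 h (log2 difference -0.49, SE 0.07, adjusted p = 1.73e-06), and the acid phosphatase gene PAP17 had 25.8, 26.2 and 33.6 CPM at 72 h, against 68.4, 90.8 and 49.5 CPM at 24 h (log2 difference -1.24, SE 0.22, adjusted p = 3.86e-05). Of 9 sulfur shortage genes 4 rose and 1 fell, and the split ran through one gene family: the APS reductase genes APR1 and APR3 rose (log2 difference 0.86, adjusted p = 1.95e-08 and log2 difference 0.97, adjusted p = 5.88e-09) and APR2 fell (log2 difference -0.55, adjusted p = 6.53e-06). Of 15 nitrogen genes 4 rose and 4 fell, near the shares of all tested genes, and 2 rose without replicate 3 of 24 h or replicate 2 of 72 h, with the nitrate transporter gene NRT1.1 at 84.9, 77.6 and 75.0 CPM at 72 h, against 163, 179.7 and 156 CPM at 24 h (log2 difference -1.07, SE 0.10, adjusted p = 3.36e-10). Of 9 iron shortage genes 3 fell and 0 rose, with a median of -0.07, and PYE, a bHLH regulator of iron balance, had 9.99, 11.4 and 12.3 CPM at 72 h, against 43.9, 21.4 and 37.4 CPM at 24 h (log2 difference -1.51, SE 0.16, adjusted p = 1.17e-08). Aliphatic glucosinolate genes, for defence compounds of the cabbage family, rose in 8 of 12 cases and fell in 0. Without replicate 1 of 24 h 4 of them rose, and 4 calls held whichever of the 6 libraries was left out. CYP79F1 had 470.2, 425 and 444 CPM at 72 h, against 178, 331 and 188 CPM at 24 h (log2 difference 1.00, SE 0.19, adjusted p = 6.85e-05), and its replicate 2 at 24 h stood above the other 2. Of 10 indole glucosinolate genes 1 rose and 1 fell, both regulators: MYB51 rose (log2 difference 0.52, adjusted p = 0.0354) and MYB34 fell (log2 difference -1.11, adjusted p = 1.76e-06). The rise of MYB51 was lost without replicate 2 or 3 of 24 h or replicate 1 or 3 of 72 h (adjusted p = 0.0727 to 0.255).

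Of 9 antioxidant and mitochondrial stress genes 2 rose and 5 fell, with 1 rise without replicate 1 or 3 of 24 h or replicate 1 or 3 of 72 h, and the catalase genes split: CAT2, the main leaf catalase of photorespiration, had 2120, 1838 and 2033 CPM at 72 h, against 3968, 3792 and 3634 CPM at 24 h (log2 difference -0.93, SE 0.06, adjusted p = 2.76e-13), and CAT3 averaged 1439 ± 125 CPM at 72 h and 851 ± 168 CPM at 24 h (log2 difference 0.77, SE 0.12, adjusted p = 1e-05). AO, L-aspartate oxidase of NAD synthesis, had 21.1, 18.0 and 20.0 CPM at 72 h, against 131, 125 and 116 CPM at 24 h (log2 difference -2.63, SE 0.11, adjusted p = 2.83e-17). Among 20 flowering time genes 4 rose and 5 fell. SOC1, a promoter of flowering, had 13.4, 14.6 and 17.6 CPM at 72 h, against 4.75, 7.51 and 6.53 CPM at 24 h (log2 difference 1.23, SE 0.18, adjusted p = 2.54e-06), and TEM2, a repressor, averaged 14.4 ± 1.15 CPM at 72 h and 4.83 ± 0.903 CPM at 24 h (log2 difference 1.498, SE 0.17, adjusted p = 2.47e-08). COL1 and COL2, CONSTANS-like genes, fell (-1.30 and -1.21). The flowering repressor gene FLC overlapped between the times (log2 difference -0.07, adjusted p = 0.828), and FT, the mobile flowering signal, was at 0, 0.0647 and 0 CPM at 72 h and 0, 0 and 0.0710 CPM at 24 h. Of 13 DNA damage response genes 4 rose and 1 fell, with 2 rises without replicate 1 of 24 h or replicate 2 of 72 h. The repair genes PARP2 and XRI1 did not pass the test (log2 difference 0.22, adjusted p = 0.151 and log2 difference -0.06, adjusted p = 0.626), with an adjusted p of 0.0409 for PARP2 without replicate 1 of 72 h, and AGO2, which acts in small RNA pathways, was the fall (log2 difference -0.96, SE 0.08, adjusted p = 2.75e-11). Of 11 senescence genes 2 fell, NYE1 (log2 difference -0.83, adjusted p = 8.79e-06) and HAI1, with 1 fall without replicate 2 of 24 h and 4 without replicate 3 of 72 h.

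**Figure D3:**
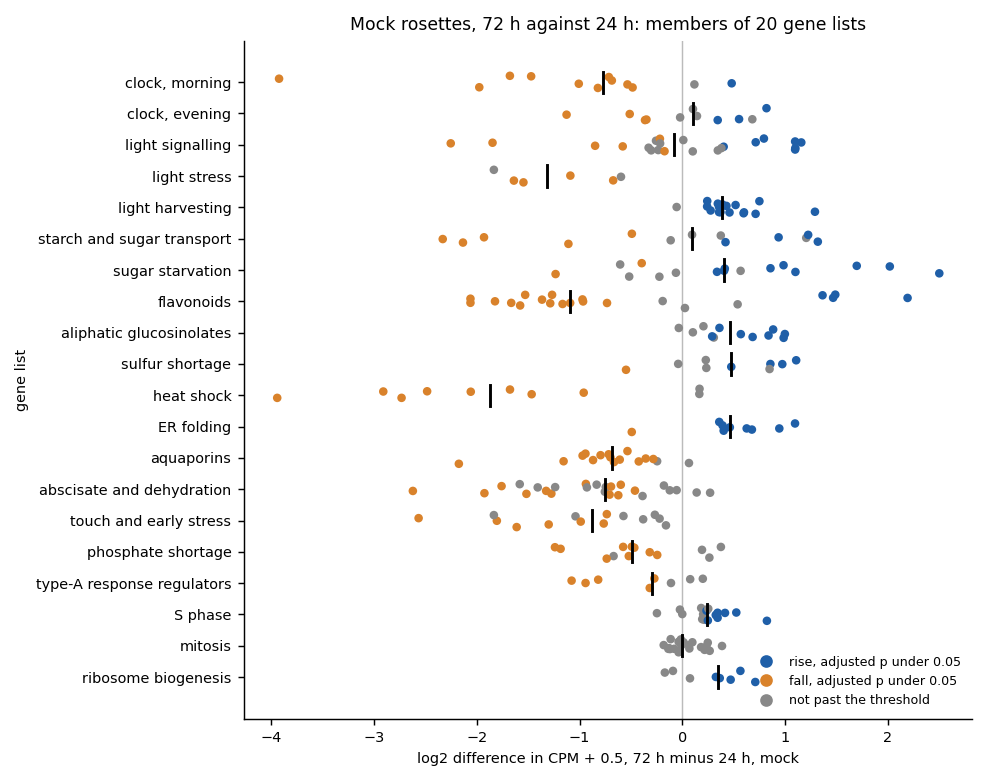
Log2 differences, 72 h minus 24 h, of each tested member of 20 gene lists in mock rosettes, with a black bar at each list's median. The medians are lowest for heat shock, light stress and flavonoids and highest for sulfur shortage, aliphatic glucosinolates and ER folding.

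Further genes complete the 15 largest rises. DEWAX (AT5G61590), a repressor of wax synthesis, had 11.5, 13.7 and 13.6 CPM at 72 h, against 0.853, 1.02 and 0.675 CPM at 24 h (log2 difference 3.32, SE 0.24, adjusted p = 4.53e-12). The others were a Kelch F-box gene (AT1G23390, 2.97), a legume lectin gene (AT5G03350, 2.97), a cysteine-rich membrane module gene (AT3G22235, 2.70), the zinc finger gene ATCTH (2.68), AT1G19960 (2.51) and a GILT reductase gene (AT4G12900, 2.42). Among the largest falls, AT5G42825, of unknown function, had no count in the 72 h libraries, against 6.42, 7.75 and 7.598 CPM at 24 h, at least 74.8-fold lower at 72 h by the highest floor of a 72 h library. The Dof zinc finger gene AT1G26790 had 0.0970, 0.356 and 0.141 CPM at 72 h, against 4.39, 4.56 and 4.44 CPM at 24 h (log2 difference -2.85, SE 0.15, adjusted p = 1.01e-14). A RING gene (AT1G24580) and a DNAJ gene (AT2G20560) had log2 differences of -2.82 and -2.80. UGT76E12, CYP94B1 and AT1G07887 were also among the largest falls, with differences of -2.97, -2.70 and -2.81, but with wide spread. The call of CYP94B1 held whichever of the mock libraries of the 2 times was left out. The call of UGT76E12 (adjusted p = 0.00824) was lost without replicate 2 of 24 h (adjusted p = 0.0503). That of AT1G07887 (adjusted p = 0.0492) was lost without any 1 library except replicate 2 of 72 h (adjusted p = 0.0753 to 0.136).

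The same interval was measured in irradiated plants, whose libraries are in neither group of the mock comparison. The spread of each gene was estimated once over all 36 libraries, so the comparisons share that estimate. At 10 cGy 8195 genes changed (43.4%), with 3429 rises and 4766 falls (25.3%), and at 100 cGy 8317 (44.1%), with 5035 rises (26.7%) and 3282 falls (17.4%). Of these, 352 (1.86%) rose 2-fold or more and 529 (2.80%) fell 2-fold or more at 10 cGy, and 542 (2.87%) rose and 382 (2.02%) fell that much at 100 cGy. Rises made up 51.6% of the calls in mock plants, 41.8% at 10 cGy and 60.5% at 100 cGy. With libraries rescaled by median ratios these shares were 49.9%, 51.5% and 49.4%, so the lean to one side depends on the scaling. Of the mock rises, 65.2% rose at 10 cGy and 83.8% at 100 cGy, which is 79.0% of the rises at 10 cGy and 69.2% of those at 100 cGy. Of the mock falls, 83.4% fell at 10 cGy and 70.4% at 100 cGy, which is 68.3% of the falls at 10 cGy and 83.6% of those at 100 cGy. In all 3 treatments 5065 of the 8056 genes (62.9%) were called in one direction, and 11 had an opposite call at some dose. Across all tested genes the log2 difference in mock plants had a Pearson correlation of 0.876 with that at 10 cGy and 0.774 with that at 100 cGy, as a description: genes are not independent, and the plants share harvest times.

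Genes given above are set side by side by treatment. LHY differed by -3.93 in mock plants, -3.88 at 10 cGy and -3.83 at 100 cGy. HSFA2 differed by -3.94 in mock plants, -3.49 at 10 cGy and -3.45 at 100 cGy. For GBSS1 the differences were -2.33 in mock plants, -2.24 at 10 cGy and -2.499 at 100 cGy, and for PORB 2.51, 2.45 and 2.91 in the same order. HAI1, among the 15 largest falls in mock plants, differed by -2.62 in mock plants and -2.76 at 10 cGy, while at 100 cGy its difference was -0.29 and did not pass the test (adjusted p = 0.804). The change in its difference between 100 cGy and mock plants was not called either (adjusted p = 0.640). Called in one direction in all 3 treatments were 26.8% of all tested genes, and among the lists 11 of 12 morning clock genes, 8 of 10 heat shock genes, 13 of 16 aquaporin genes, 15 of 18 light-harvesting genes and 16 of 21 flavonoid genes. In other lists the counts were 1 of 16 S phase genes, 0 of 14 cytosolic ribosomal protein genes, 1 of 27 jasmonate genes and 4 of 25 abscisate genes. Cytosolic ribosomal protein genes had 5 rises in mock plants, 1 fall at 10 cGy and 11 rises at 100 cGy. Of 9 iron shortage genes 3 fell in mock plants, 3 at 10 cGy and 7 at 100 cGy, with medians of -0.07, 0.12 and -0.92 in that order. Of 20 mitosis genes none was called in mock plants, 7 fell at 10 cGy and 4 rose at 100 cGy. Over all tested genes 25.3% fell at 10 cGy and 26.7% rose at 100 cGy. Rises made up 41.8% of all calls at 10 cGy and 60.5% at 100 cGy, but 51.5% and 49.4% with median-ratio scaling. Whether the ribosomal protein and mitosis counts by dose follow that lean was not tested. The difference between treatments was not called for any member counted in these lists.

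**Figure D4:**
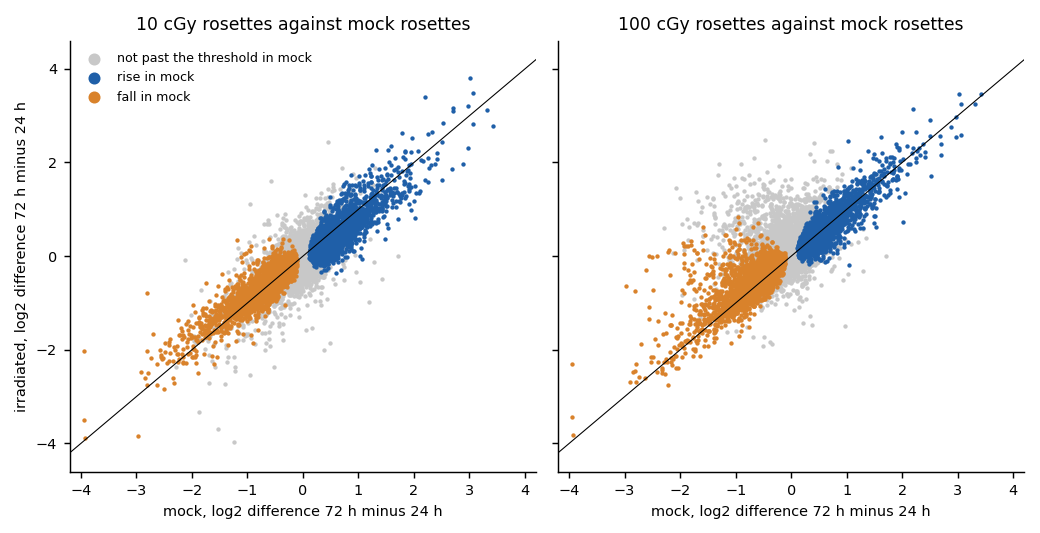
Log2 differences, 72 h minus 24 h, of each tested gene at 10 cGy (left) and 100 cGy (right) on the y axes against those in mock rosettes on the x axes, coloured by the call in mock rosettes, with the line of equal values. Points lie along that line, with Pearson correlations of 0.876 at 10 cGy and 0.774 at 100 cGy.

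Whether the difference itself depended on dose was tested as an interaction. Between 10 cGy and mock plants 0 genes were called by limma, while 1932 (10.2%) had an unadjusted p under 0.05. Between 100 cGy and mock plants 1 gene was called, 0.00530% of those tested, while 1512 (8.01%) had an unadjusted p under 0.05. That gene was AT1G47395, which has no symbol in the reference used. It had been written into the iron shortage list but was left out of that list's counts, because its listed name had no match in the reference. It had 2.13, 2.80 and 3.02 CPM at 72 h, against 11.1, 11.1 and 9.65 CPM at 24 h after 100 cGy. Mock plants had 7.597, 7.70 and 10.07 CPM at 72 h, against 12.0, 9.02 and 12.4 CPM at 24 h. At 10 cGy it had 2.47, 2.65 and 4.34 CPM at 72 h, against 11.1, 12.6 and 8.58 CPM at 24 h, and the 72 h libraries of both doses lay below all 72 h libraries of mock plants. The 100 cGy minus mock difference was -1.45 (adjusted p = 0.0419). It was not called with only the 12 libraries of the 2 treatments in the fit (adjusted p = 0.200), nor in 8 of the 12 fits that left out 1 of these libraries (adjusted p = 0.0678 to 0.280). Leaving out 1 library gave 0 to 60 calls between 100 cGy and mock plants, with 60 without replicate 3 of 72 h at 100 cGy. Between 10 cGy and mock plants it gave 0 to 41 calls, with 41 without replicate 2 of 24 h at 10 cGy.

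Some stress genes varied more between replicates than others. HAI1, given above for mock plants, had 4.62, 1.70 and 3.32 CPM at 72 h, against 8.60, 27.9 and 50.9 CPM at 24 h after 10 cGy. After 100 cGy HAI1 had 35.5, 22.2 and 2.06 CPM at 72 h, against 6.70, 53.1 and 9.41 CPM at 24 h, with 2 of 3 libraries of 72 h high. The sugar phosphate carrier gene GPT2 had 5.14, 4.46 and 6.32 CPM at 72 h, against 19.1, 23.3 and 22.2 CPM at 24 h in mock plants. After 100 cGy GPT2 had 48.9, 27.6 and 4.403 CPM at 72 h, against 21.5, 18.4 and 14.6 CPM at 24 h, again with replicates 1 and 2 of 72 h high. In the 24 h groups of all 3 treatments, replicate 1 was lowest for HAI1, RD20 and JAZ1. What sets these libraries apart was not tested. RD20, GPT2 and the jasmonate hydroxylase gene CYP94B3 were added for display after their values were seen.

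**Figure D5:**
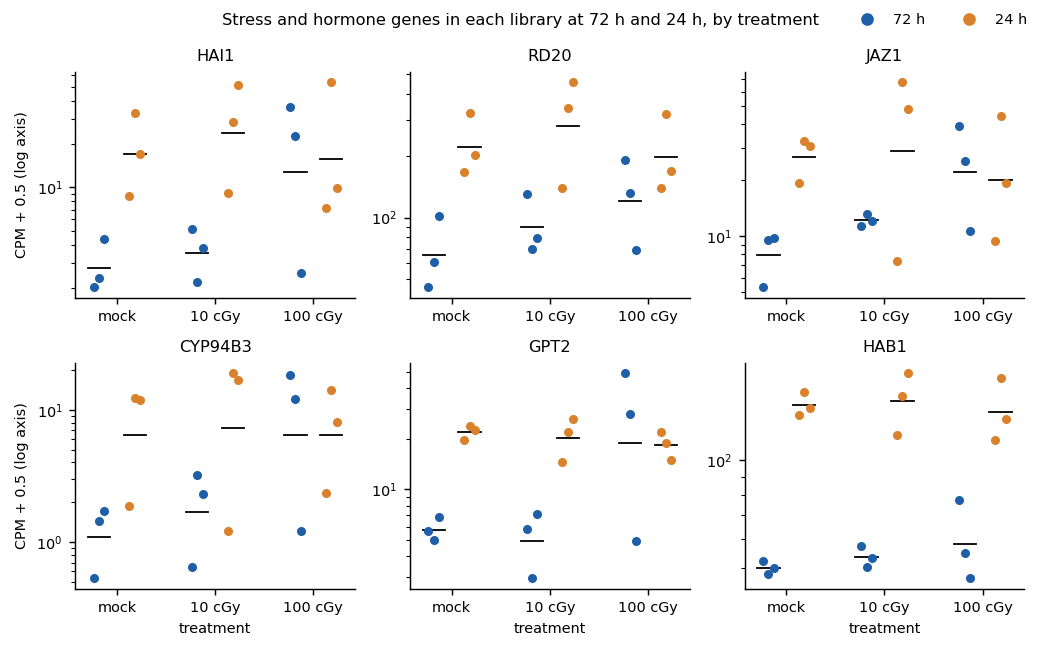
CPM + 0.5 of 6 genes on a log axis by treatment (mock, 10 cGy, 100 cGy), with 72 h to the left of 24 h, points for libraries and bars for means on the log scale. HAB1 separates the times in every treatment, and the other 5 genes overlap between the times at 100 cGy.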

How the data were processed

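The data are RNA sequencing of poly(A) RNA from Arabidopsis rosettes, made with a strand-specific kit. Per the submitters' processing notes, the tools were RSEM 1.2.28, STAR 2.5.2b and Trimmomatic 0.32, and the build was TAIR10. The authors deposited CPM values (counts scaled to a total of 1000000) for 33977 genes in 36 libraries, and a second table whose deposited values are natural logs of the same CPM with 1 added, to within 4.1e-09. Of the CPM values, 88.6 to 90.6% came out as whole reads (tolerance 0.02), too few to recover the counts, so no count test was run. From the CPM, log2(CPM + 0.5) was fitted with limma 3.58.1 (R 4.3.3) with an intensity trend, over all 36 libraries and 12 group means, for the 18875 genes with at least 1 CPM in at least 3 libraries, with Benjamini-Hochberg adjustment within each contrast. Other settings tried were the libraries in the fit, the filter, the pseudocount, rescaling by median ratios, the variance model, the replicate number as a block and leaving out single libraries. Tested on simulated data over 18875 genes for the mock contrast, the fit recovered 98 of 100 genes changed by 1 on the log2 scale and 68 of 100 changed by 0.5, with 9 unchanged genes called. Only these genes were changed there, all of at least 1 CPM on average, and the added noise was normal and independent between genes. In the data 8056 genes were called. The simulation therefore gives neither the number of false calls nor the share of changes found in that contrast. Names came from RefSeq TAIR10.1, which matched 18802 of the tested genes. Promoter windows were read from that assembly by its own annotation. The gene lists held 680 loci, of which 615 were tested, and 17 without a matching name were left out. The members and lists were chosen with earlier results of these data known. The genes named are the 15 largest rises and falls whose libraries do not overlap between the times, from each list at most 4 called members, those of smallest p, 15 clock, flowering, immunity and repair genes chosen whatever their values, and further list members where a list is described member by member. ISA3 was added after its values were seen. Replicates have no pairing in the labels.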

Additional observations from a re-analysis of the deposited data

Results flagged for a closer look

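The change between the times in AT1G47395 was called as different between 100 cGy and mock plants in the main fit. The 72 h minus 24 h difference at 100 cGy minus that in mock plants was -1.45 on the log2 scale (limma interaction, adjusted p = 0.0419), the one such gene called among 18875. Plants given 100 cGy had 2.13, 2.80 and 3.02 CPM at 72 h, against 11.1, 11.1 and 9.65 CPM at 24 h, while mock plants had 7.597, 7.70 and 10.07 CPM at 72 h, against 12.0, 9.02 and 12.4 CPM at 24 h. The call was lost with only the 12 libraries of the 2 treatments in the fit (adjusted p = 0.200) and without a filter on low values (adjusted p = 0.0555). It was also lost in most fits that left out 1 of these libraries (adjusted p = 0.0678 to 0.280). Between 10 cGy and mock plants 0 genes were called.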

How the results depend on the processing

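The count of genes called between mock 72 h and 24 h was 8056. It was 6292 with only the 6 libraries in the fit and 7579 with the 12 mock libraries, and leaving out 1 library gave 7103 to 7354. With the replicate number as a replicate block it was 8036 for mock, 8159 for 10 cGy and 8287 for 100 cGy plants, with 0 interaction calls at 10 cGy and 1 at 100 cGy. Same-numbered libraries of the 2 times had deviations from their group means correlated at 0.379, -0.139 and -0.125, so the numbers were not taken to pair them, and not every library correlated best with its own number. Leaving out 1 library gave 6889 to 7731 calls at 10 cGy and 7253 to 7678 at 100 cGy. For the interactions it gave 0 to 41 calls at 10 cGy and 0 to 60 at 100 cGy. The interaction at 100 cGy had 0 calls with only its libraries and 2 with no intensity trend, and that at 10 cGy had 1 with median-ratio scaling. The cause was not tested. Median-ratio scaling gave rises of 49.9% of the calls in mock plants (51.6% unscaled), 51.5% at 10 cGy (41.8%) and 49.4% at 100 cGy (60.5%). Genes that missed the threshold changed sign when 1 library was left out, with log2 ranges of -0.266 to 0.0671 for FLC, -0.0654 to 0.893 for ASN1, -0.122 to 0.0208 for CAB1, -0.0118 to 0.0309 for PIF5, -0.0361 to 1.24 for VSP2 and -0.0652 to 0.229 for PIP2;8. Of the other comparisons of a named gene with an alternative setting, 3840 kept direction and side of the threshold, 110 lost and 7 gained a call. With only the 6 libraries, light-harvesting rises were 11 in place of 17, S phase rises 4 in place of 8 and jasmonate falls 9 in place of 5. Leaving out 1 library gave 3 to 12 S phase rises, 0 to 7 jasmonate falls, 3 to 9 cytosolic ribosomal protein rises and 4 to 9 aliphatic glucosinolate rises. The depth leaves levels under about 0.1 CPM, near 3 counts, unresolved.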
